A study of Arabidopsis thaliana with 20 samples.

Results

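Mild drought was compared with regular watering in the stomata-enriched epidermal fraction of bam1 plants, on the 4 of 20 arrays whose labels name this genotype and tissue, 2 from control and 2 from drought-stressed plants. bam1 is a homozygous T-DNA insertion line of the beta-amylase gene BAM1 in the Arabidopsis ecotype Columbia (Col-0). All plants of both groups carried the insertion, so the comparison describes the drought response of 1 insertion line. The labels give an age of 5 weeks in one field and 6 weeks in the treatment text, drought lasted 5 days, and leaves were harvested when the light period ended. Each array was hybridised with Cy3-labelled RNA from the epidermal peels of 5 to 8 pooled plants, and peels were obtained by blending leaves in ice water. The values below are quantile-normalised signals on the log2 scale, given array by array, and a change is the drought mean minus the control mean, with its standard error (SE).

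Stomata are pores in the leaf epidermis that are bordered by a pair of guard cells, whose turgor sets the pore width. When water is short, the hormone abscisic acid (ABA) binds receptors of the PYR/PYL family, which then inhibit clade A protein phosphatases (PP2C) and so free SnRK2 kinases such as OST1 to act on ion channels and on transcription factors. Guard cells also build up and break down starch, and BAM1 is the plastid enzyme known for starch breakdown in illuminated guard cells.

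The probe for BAM1 (AT3G23920) read 7.36 and 9.71 in the control group against 7.84 and 8.24 after drought, so control array 2 stood above the other arrays for the disrupted gene itself. Between 66.41% and 72.31% of the spots on these 4 arrays were well above background and none was saturated. The paired arrays of each group correlated at r = 0.9789 for control and r = 0.9823 for drought over all probes, a description of likeness with no test. The 8 guard-cell markers were all higher on every bam1 stomatal array than on every bam1 leaf array, by a median of 2.59 on the log2 scale. The 8 mesophyll markers, photosynthesis genes that guard cells also express, differed from leaf by -0.12 to 0.36 with a median of 0.28, and the part of mesophyll RNA in the fraction was not tested. In such bulk samples fewer cells of a type and less RNA per cell cannot be told apart. The summed linear signal of the guard-cell markers was 209000 and 117000 for control against 107000 and 140000 for drought. Control array 1 thus stood apart, and it exceeded control array 2 for 8 of 8 guard-cell markers. The vascular markers summed to 187000 and 133000 for control against 206000 and 224000 for drought, and the epidermis and trichome markers to 138000 and 134000 against 206000 and 240000. Both of these sums were higher on each drought array than on each control array, and their part in the results below was not tested. On the bam1 leaf arrays the vascular sum lay between 38500 and 52000. Of the 8 vascular markers 3 were higher on every stomatal array than on every leaf array. In control plants these 3 differed from leaf by 2.71 (AHA3), 2.69 (APL) and 1.89 (SUC2). XCP2 was lower on every stomatal array, and the median difference of the 8 was -0.13. LTP1, a lipid transfer protein of the epidermis, carried most of the epidermis sum (16.56 and 16.57 against 17.25 and 17.55). PDF2 (0.55) and GL2 (0.74) were also higher on both drought arrays than on both control arrays, whereas the changes of FDH (-0.20), PDF1 (-0.36) and ATML1 (0.11) were small or below 0. The 4 arrays lay on 4 different slides, so no slide held both groups. Values for Col-0 stomata, given below for comparison, come from 3 control and 2 drought arrays, and the library labelled drought array 2 among them goes against its label, with a BAM1 signal of 7.81, so the medians of lists are also given without it.

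**Figure D1:**
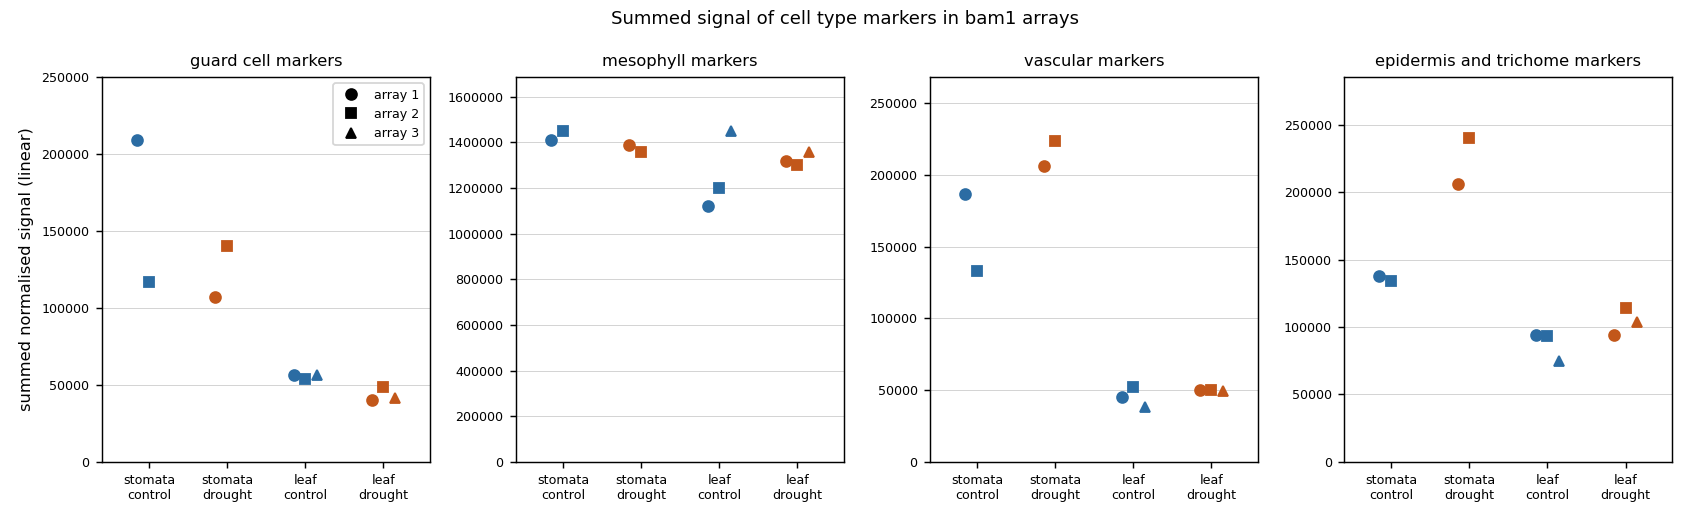
Summed normalised signal (y axis, linear scale) of the 4 cell type marker lists on the bam1 stomatal and leaf arrays, with a point per array, control in blue and drought in orange. Guard-cell markers sat between 107000 and 209000 in stomata and between 40200 and 56600 in leaf, whereas mesophyll markers lay between 1120000 and 1450000 in both.

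Of 29369 probes that could be tested, 1750 (5.96%) changed at least 2-fold with an adjusted p under 0.05, which is the rule for a call throughout. Of these, 819 (2.79%) were higher and 931 (3.17%) were lower under drought. Taking the brightest tested probe of each gene, 1226 of 18598 genes (6.59%) were called, 586 of them higher (3.15%) and 640 lower (3.44%). The median change over all genes was 0.03, and the counts of gene lists given below are read against these shares. On 15244 probes (51.9%) the drought and control arrays did not overlap at all, so a lack of overlap between 2 and 2 arrays is common and no call rests on it. When each array was left out in turn, 62 of the 132 called list genes were called every time. With the slide as a fixed block in the fit, 525 probes and 41 of the 132 list genes were called. In the accounts below a call that was lost is named with the array whose omission ended it. The change on the log2 scale without that array follows in parentheses, in most cases with the adjusted p.

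**Figure D2:**
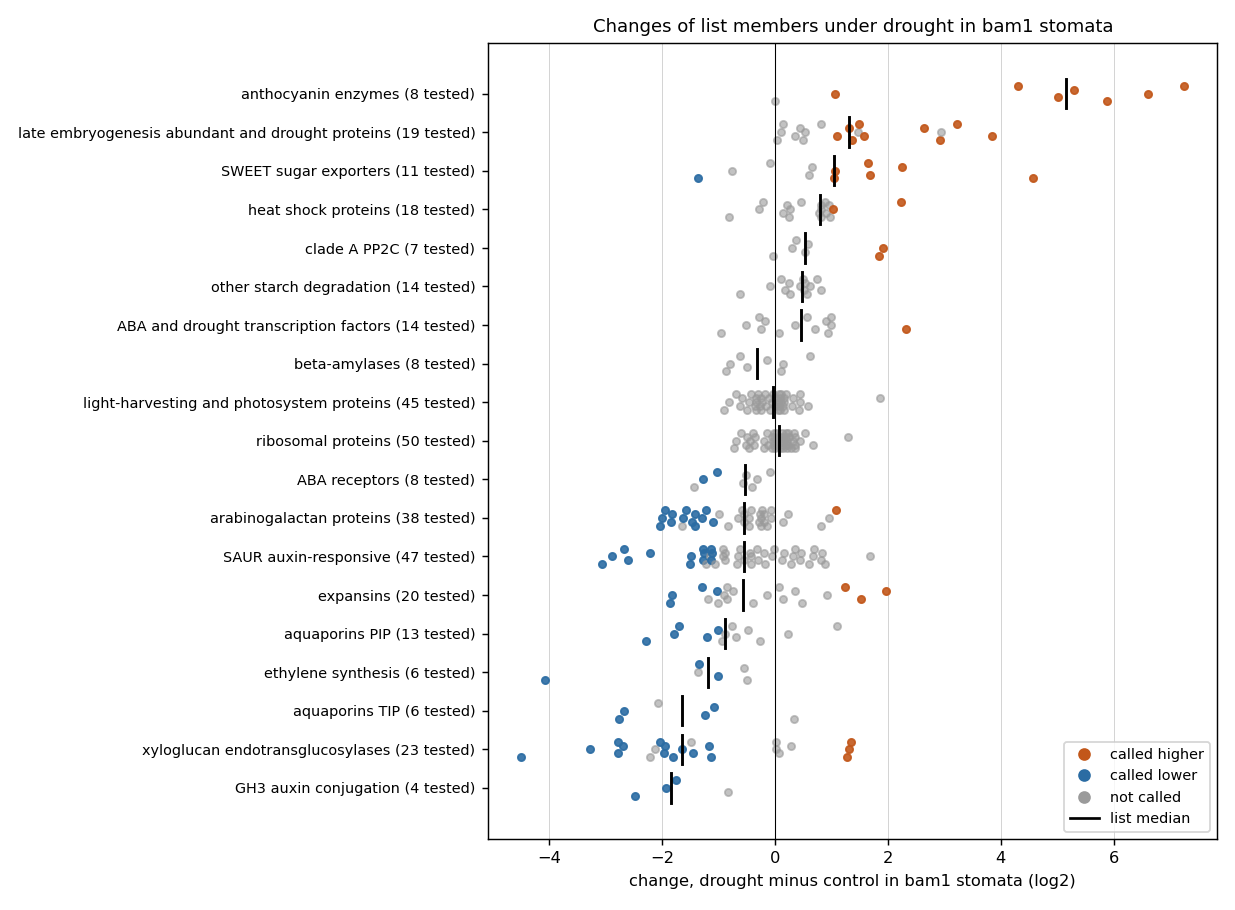
Change under drought in bam1 stomata (log2, x axis) of each tested gene in 19 lists, with a dot per gene, called genes coloured and a black bar at the list median. The anthocyanin enzymes lay furthest to the right with a median of 5.15, and the GH3, xyloglucan endotransglucosylase and TIP aquaporin lists furthest to the left with medians of -1.84, -1.65 and -1.65.

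The anthocyanin enzymes had the highest median change of the lists examined. The lists were chosen with earlier results of these data known, so their ranks and counts, here and below, are not independent evidence. Of 8 anthocyanin enzymes tested 7 rose and none fell, with a median change of 5.15. GSTF12, the glutathione transferase needed for moving anthocyanins into the vacuole, gave 6.96 and 5.88 in control against 13.39 and 13.94 in drought arrays. Its groups stood more than 6 units apart, a change of 7.25 ± 0.54 (SE, n = 2 and 2) or 152-fold (limma adjusted p = 6.7e-06), and it had the highest change of all named genes. A second probe of GSTF12 changed by 4.47 ± 0.40. DFR, dihydroflavonol reductase, which makes leucoanthocyanidins, gave 5.37 and 6.34 against 11.87 and 13.07, a 97.6-fold rise (adjusted p = 0.00161). LDOX, the next enzyme of the pathway, gave 2.44 and 4.99 against 8.80 and 10.39, and only 1 of its 2 control arrays was above background. For both enzymes the lower drought array lay far above the higher control array.

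The enzymes that decorate the anthocyanin molecule rose in the same samples. UF3GT, a xylosyltransferase, gave 7.75 and 6.18 against 11.67 and 12.28, a change of 5.00 ± 0.57 (adjusted p = 1.1e-04). UGT75C1, the 5-O-glucosyltransferase, gave 6.74 and 6.43 against 10.57 and 11.20, or a 19.7-fold rise (adjusted p = 2.5e-04). The malonyltransferase 5MAT gave 3.88 and 4.85 against 9.35 and 9.98, with 1 of 2 control arrays above background. In each case both drought arrays exceeded both control arrays, and drought array 2 was the higher of the pair. UGT78D2, the flavonoid 3-O-glucosyltransferase that also serves flavonols, rose by only 1.07, and its call was lost without control array 1 (1.12, adjusted p = 0.0558), without control array 2 (1.02, adjusted p = 0.117) and without drought array 2 (0.80, adjusted p = 0.215). TT7, the flavonoid 3'-hydroxylase, gave 10.49 and 9.22 against 9.85 and 9.85 and was not called.

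The early enzymes that feed flavonols as well as anthocyanins were mostly not called, with 2 of 8 higher and a list median of 0.08. CHS, chalcone synthase, the entry enzyme of the flavonoid pathway, gave 8.34 and 8.27 against 11.29 and 12.12. Its groups were well apart, a 10.6-fold rise (adjusted p = 3.2e-04). F3H, flavanone 3-hydroxylase, rose by 1.35 ± 0.35, and its call was lost without control array 2 (1.00, adjusted p = 0.182) and without drought array 2 (0.91, adjusted p = 0.222). The other 6, among them PAL1, PAL2 and 4CL3 of the general phenylpropanoid pathway, had changes between -0.17 and 0.34.

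Among 15 listed flavonoid regulators 10 could be tested, of which 2 rose and 1 fell. MYB75 (PAP1), the MYB factor that switches on anthocyanin genes, gave 10.15 and 10.48 against 12.58 and 13.32, a 6.21-fold rise (adjusted p = 8.3e-05). Its bHLH partner TT8 gave 4.73 and 3.80 against 7.34 and 7.81, with 1 of 2 control arrays above background, a change of 3.31 ± 0.47 (adjusted p = 5.1e-04). LBD38, known as a repressor of anthocyanin regulators under nitrogen supply, moved the other way and gave 12.11 and 11.23 against 10.56 and 10.14. It fell by 1.32, a call that was lost without control array 1 (-0.88, adjusted p = 0.0915) and without drought array 2 (-1.11, adjusted p = 0.111). The median change of the anthocyanin enzymes was 3.95 in stomata labelled Col-0 (4.78 without the library labelled drought array 2) and 3.82 in bam1 leaves, and no member passed the test of a genotype or a tissue difference on its brightest probe. With the slide as a fixed block 4 of the 7 anthocyanin enzyme calls held.

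**Figure D3:**
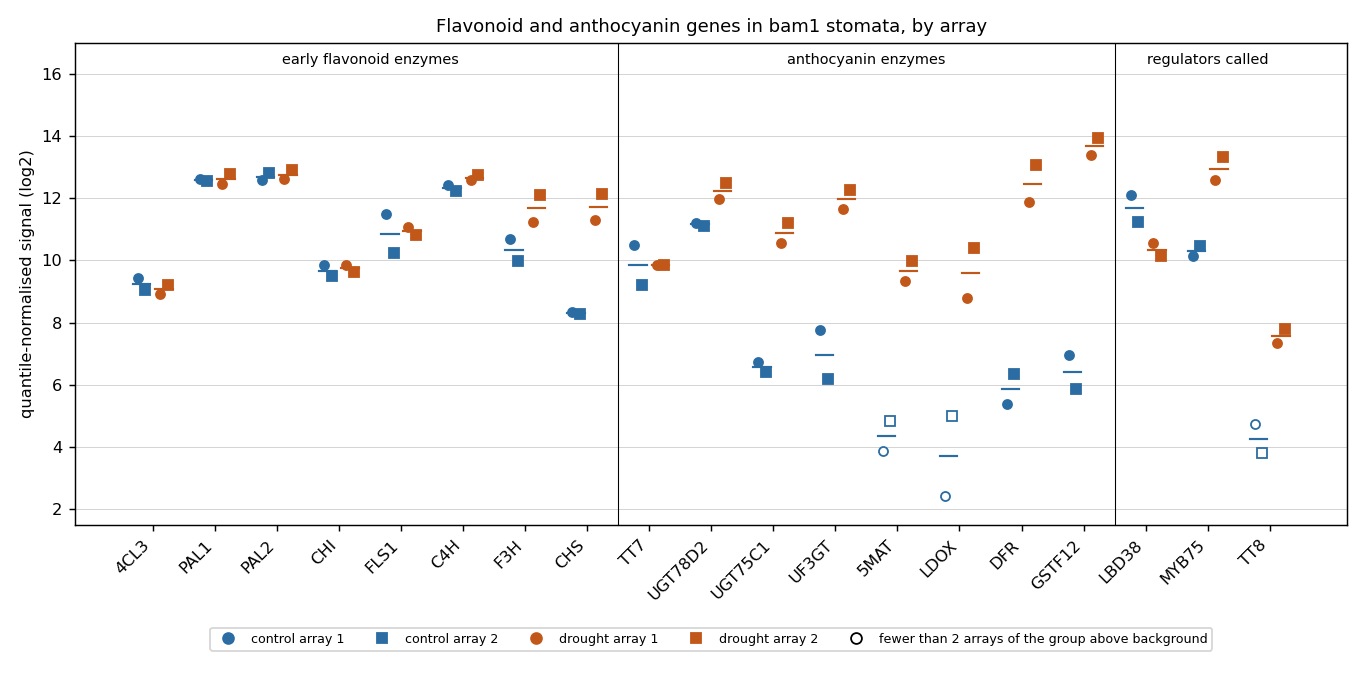
Quantile-normalised log2 signal (y axis) of early flavonoid enzymes, anthocyanin enzymes and the 3 called regulators on each bam1 stomatal array, control in blue and drought in orange, circles for array 1 and squares for array 2, with a dash at each group mean. From UGT75C1 to GSTF12 both drought points lie above both control points by more than 3 units, while the early enzymes other than CHS and F3H overlap or nearly touch.

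Late embryogenesis abundant (LEA) and other drought-induced proteins, many of which are thought to shield membranes and proteins in dehydrating cells, rose in 9 of 19 tested cases. None fell, all 19 changes were above 0, and the median was 1.31. LTI30, a dehydrin, gave 10.68 and 10.79 against 13.17 and 13.59, a 6.24-fold rise (adjusted p = 4.0e-05). XERO1, another dehydrin, was above background on neither control array and gave 5.31 and 6.05 under drought, at least 4.48-fold higher (adjusted p = 4.4e-04). Here and below, "at least" compares the mean of the brighter group with the lowest signal well above background on each array of the dimmer group, or the probe's own signal where that is higher. Where the probe's own signal is used on both arrays, the value equals the fitted fold and is no lower limit, as for the genes marked "about". LTP3, a lipid transfer protein, gave 11.35 and 11.93 against 14.43 and 15.29 and rose by 3.22 ± 0.40 (adjusted p = 2.1e-04). TSPO, a membrane protein of the secretory pathway that ABA induces, gave 5.53 and 5.63 against 9.08 and 9.75, a 14.3-fold rise (adjusted p = 3.0e-04). In these 4 genes the drought arrays stood clear of the control arrays.

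Classical marker genes of drought and ABA had smaller changes. RD29A gave 14.42 and 14.23 against 15.68 and 15.94, a change of 1.48 ± 0.41, and its call was lost without control array 1 (1.57, adjusted p = 0.0573), without control array 2 (1.39, adjusted p = 0.133), without drought array 1 (1.61, adjusted p = 0.0690) and without drought array 2 (1.36, adjusted p = 0.157). RAB18 gave 16.32 and 15.15 against 17.17 and 16.92, a change of 1.31 ± 0.38, with the call lost without control array 2 (0.72, adjusted p = 0.333), without drought array 1 (1.19, adjusted p = 0.148) and without drought array 2 (1.43, adjusted p = 0.107). The groups of neither gene overlapped. COR15A, a chloroplast LEA protein, rose by 1.11 (adjusted p = 0.00153), with the call lost without control array 1 (0.84, adjusted p = 0.00819). With the slide as a fixed block 4 of the 9 calls of the list held, and without control array 2 its median was 0.72 in place of 1.31. It was 0.90 in stomata labelled Col-0 (1.08 without the library labelled drought array 2) and 0.98 in bam1 leaf, and no member passed either test of a difference.

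Upstream of these targets, receptors of ABA were called lower and phosphatases higher. Of 8 ABA receptors tested 2 fell and none rose, and all 8 changes were below 0 with a median of -0.54. PYL5 gave 8.96 and 8.54 against 7.74 and 7.21 and PYL8 gave 11.03 and 10.49 against 9.93 and 9.54. In both genes the control arrays were the higher pair, and both calls rested on single arrays, that of PYL5 being lost without control array 1 (-1.07, adjusted p = 0.124), without control array 2 (-1.49, adjusted p = 0.0610) and without drought array 2 (-1.01, adjusted p = 0.213) and that of PYL8 without control array 1 (-0.76, adjusted p = 0.105) and without drought array 2 (-0.83, adjusted p = 0.147). The receptors were lower on control array 2 than on control array 1 in 7 of 8 cases, as the guard-cell markers were, and the part of that in the result was not tested.

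The clade A phosphatases, the proteins that the receptors inhibit, went the other way, with 2 of 7 tested higher and none lower. HAI1 gave 8.44 and 8.66 against 10.33 and 10.59, a 3.76-fold rise (adjusted p = 0.00114). HAI2 gave 8.34 and 8.17 against 9.70 and 10.51, and its call was lost without control array 1 (1.94, adjusted p = 0.0624), without control array 2 (1.76, adjusted p = 0.129) and without drought array 2 (1.45, adjusted p = 0.216). For each gene both drought arrays exceeded both control arrays by more than 1 unit, but neither call held with the slide as a fixed block, nor did those of the receptors or of SNRK2.9. Among 10 SnRK2 kinases 1 was called, SNRK2.9, at 1.15 (adjusted p = 0.0237), with 1 of 2 control arrays above background and the call lost without control array 2 (0.57, adjusted p = 0.273), without drought array 1 (1.04, adjusted p = 0.117) and without drought array 2 (1.25, adjusted p = 0.0839). OST1, the guard-cell kinase of ABA signalling, gave 9.43 and 8.04 against 8.65 and 8.64 and was not called, its 2 control arrays lying on either side of the drought arrays.

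Of 11 tested genes of ABA synthesis, release and breakdown 2 rose. BGLU18, the glucosidase that releases ABA from its glucose ester, gave 15.46 and 15.80 against 17.13 and 17.47, a rise of 1.67 ± 0.31 (adjusted p = 0.00313) that was not called with the slide as a fixed block, as was the case for CYP707A4. CYP707A4, an ABA 8'-hydroxylase that starts ABA breakdown, gave 6.68 and 6.67 against 8.20 and 8.05. The arrays of each CYP707A4 group lay close together, although the call was lost without control array 2 (1.45, adjusted p = 0.0731), without drought array 1 (1.37, adjusted p = 0.0729) and without drought array 2 (1.53, adjusted p = 0.0675). NCED3, the rate-limiting enzyme of drought-induced ABA synthesis, had a change of -0.07 and was not called. Among 14 transcription factors of ABA and drought signalling HB7, a homeodomain factor, was the 1 that was called, with 10.94 and 11.24 against 13.10 and 13.74, a 5.02-fold rise (adjusted p = 3.1e-04). ABF1 (0.99, adjusted p = 7.7e-04) and ABI5 (0.99, adjusted p = 0.00279), both bZIP factors, passed the p threshold just short of 2-fold.

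Osmolyte genes were mixed, with 1 of 12 tested higher, 2 lower and a median of -0.03. GOLS4, a galactinol synthase that provides the donor for raffinose, gave 4.70 and 4.08 against 7.25 and 8.02, with 1 of 2 control arrays above background, and rose by 3.24 ± 0.60 (adjusted p = 0.00286). DIN10, a dark-induced member of the raffinose synthase family, gave 12.02 and 12.59 against 8.92 and 8.09 and was 14.0-fold lower (adjusted p = 1.7e-04). PRODH1, proline dehydrogenase, which degrades proline, gave 9.0 and 8.34 against 7.34 and 6.89, a change of -1.55 ± 0.27 (adjusted p = 0.00200). The 3 calls held without any single array, and 2 of them, DIN10 and PRODH1, with the slide as a fixed block. P5CS1, the first enzyme of proline synthesis, changed by 0.56 ± 0.30 and was not called (adjusted p = 0.248).

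Heat shock proteins, which act as chaperones, had a median of 0.80, and 2 of 18 tested rose. HSP70 gave 10.21 and 9.41 against 11.79 and 12.30, a rise of 2.23 ± 0.38 (adjusted p = 0.00183), and HSP70-1 rose by 1.03, a call lost without control array 2 (0.97, adjusted p = 0.0593) and without drought array 2 (0.86, adjusted p = 0.0933). HSFA6A, a heat shock transcription factor, gave 7.28 and 7.12 against 10.69 and 11.29 and was 13.8-fold higher (adjusted p = 5.7e-05). Its groups were more than 3 units apart on the log2 scale.

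SWEET proteins are sugar uniporters that release sucrose or hexoses across membranes. Of 11 tested members 6 rose and 1 fell, with a median of 1.04 (0.74 in stomata labelled Col-0, 0.76 without the library labelled drought array 2, and 0.19 in bam1 leaf). SWEET15, a sucrose exporter first described in senescing leaves, was above background on neither control array (3.36 and 4.30) and gave 7.80 and 9.0 under drought, about 23.7-fold higher (adjusted p = 6.6e-04). SWEET13 gave 10.80 and 10.87 against 12.49 and 12.47, a change of 1.64 ± 0.21 (adjusted p = 2.6e-04). SWEET14, its close relative, gave 4.76 and 4.54 against 7.08 and 6.72, with 1 of 2 control arrays above background. Within each SWEET13 group the arrays nearly coincided.

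SWEET11 and SWEET12, which load sucrose for the phloem and are also on the vascular marker list, belonged to the called genes. SWEET12 gave 9.50 and 9.85 against 11.23 and 11.499, a 3.23-fold rise (adjusted p = 0.00101). SWEET11 gave 12.32 and 12.32 against 13.24 and 13.48, a 2.06-fold rise (adjusted p = 0.00329) that was no longer called without drought array 2 (0.92, adjusted p = 0.0459). Of the other 6 vascular markers none was called higher and 1, the xylem protease XCP1, was called lower (-1.12). SUC2 (0.56) and AHA3 (0.35) were higher on both drought arrays than on both control arrays, without a call. XCP2 changed by -0.50, APL by -0.06 and IRX3 by 0.03. SWEET4 rose by 1.06, a call lost without control array 2 (0.73, adjusted p = 0.145) and without drought array 2 (0.95, adjusted p = 0.106). SWEET2, a vacuolar glucose carrier, gave 10.02 and 10.26 against 9.03 and 8.55 and was the member that fell (-1.35 ± 0.24, adjusted p = 0.00239). In bam1 leaf the changes of SWEET11, SWEET12 and SWEET13 were -0.08, 0.45 and 0.26, but the difference between the tissues was not called for any SWEET gene (lowest adjusted p = 0.0735). With the slide as a fixed block the calls of SWEET13 and SWEET14 held.

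Few starch genes were called. The study singled out sugar and starch genes on these samples, so these lists are not independent evidence of a direction. Of 17 genes of starch synthesis 3 rose, of 14 genes of starch degradation other than beta-amylases none was called, and of 8 beta-amylases tested none was called. GBSS1, the granule-bound synthase that makes amylose, gave 9.91 and 10.30 against 11.29 and 11.53, a rise of 1.30 ± 0.23 (adjusted p = 0.00227), but none of the 3 calls held with the slide as a fixed block, nor did any of the 5 among sugar genes below. Among the degradation genes 12 of 14 changes were above 0. GWD1, the glucan water dikinase that opens the granule surface to attack, gave 13.57 and 13.85 against 14.47 and 14.59, a change of 0.82 ± 0.17 below 2-fold (adjusted p = 0.00602). SEX4, the phosphatase that acts after it, changed by 0.75 (adjusted p = 0.00643). PGLCT, the plastid glucose exporter, changed by -0.61 (adjusted p = 0.0178) in the other direction. Among 21 genes of sucrose cleavage and sugar transport 3 rose and 2 fell. STP1, a hexose uptake carrier of the plasma membrane, gave 14.12 and 13.72 against 12.99 and 12.56 and fell by 1.14, a call lost without control array 1 (-0.95, adjusted p = 0.0168) and without drought array 2 (-0.93, adjusted p = 0.0387).

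Aquaporins, the channel proteins that let water cross the plasma membrane (PIP) and the vacuolar membrane (TIP), included several genes that fell. Of 13 PIP genes 5 fell and none rose, and of 6 tested TIP genes 4 fell and none rose, with medians of -0.89 and -1.65. The study discussed aquaporins on these samples, so the counts are not independent evidence of the direction. PIP2;3 gave 8.77 and 9.27 against 7.02 and 6.43 and was 4.90-fold lower (adjusted p = 3.3e-05). PIP2;7 gave 14.36 and 14.97 against 13.08 and 12.68, a change of -1.78 ± 0.28 (adjusted p = 0.00101). Both drought arrays lay below both control arrays in each. PIP2;2 changed by -1.70, with the call lost without control array 2 (-1.33, adjusted p = 0.148) and without drought array 2 (-1.30, adjusted p = 0.168), PIP1;5 by -1.21, which came to just under 2-fold without control array 2 (-1.0, adjusted p = 0.00939), and PIP1;3 by -1.0, lost without control array 2 (-0.98, adjusted p = 0.0805) and without drought array 2 (-0.90, adjusted p = 0.115). PIP1;4 (0.24) and PIP2;5 (1.09, adjusted p = 0.0916) were the 2 members with changes above 0, neither of them called. The PIP2;2 and PIP2;3 genes are near-identical neighbours, so their probes may share signal.

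Among the vacuolar channels TIP1;1 gave 14.26 and 14.55 against 12.02 and 11.42, a 6.42-fold fall (adjusted p = 1.1e-04). TIP2;1 gave 16.36 and 16.66 against 14.52 and 12.98, a 6.77-fold fall (adjusted p = 0.00260). The drought arrays of TIP2;1 were further apart than its control arrays, and both lay below them. TIP1;2 changed by -1.23 ± 0.19 and TIP2;2 by -1.09 ± 0.25, the call of the latter lost without control array 2 (-0.94, adjusted p = 0.0858) and without drought array 2 (-0.94, adjusted p = 0.0974). Side by side, the PIP median was -0.51 in stomata labelled Col-0 (-0.63 without the library labelled drought array 2) and -1.13 in bam1 leaf, and the TIP median -1.25 (-1.91 without it) and -2.05. On its brightest probe no aquaporin passed the test of a genotype or tissue difference. With the slide as a fixed block the calls of PIP2;3, PIP1;5 and TIP1;1 held.

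**Figure D4:**
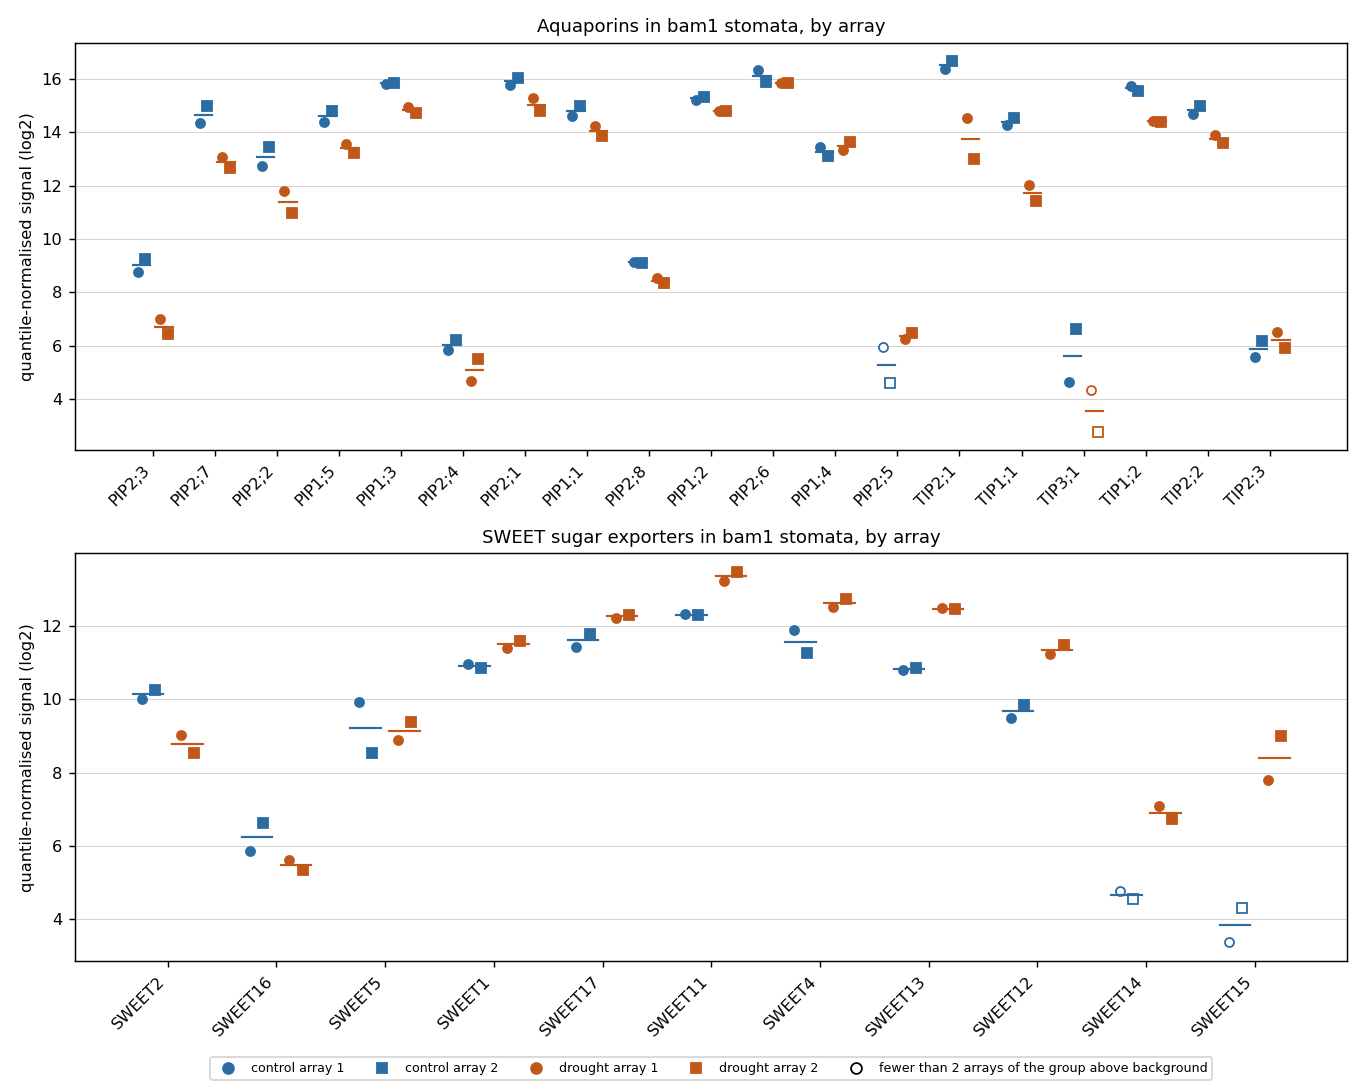
Quantile-normalised log2 signal (y axis) of 19 aquaporins (upper panel) and 11 SWEET genes (lower panel) on each bam1 stomatal array, control in blue and drought in orange, circles for array 1 and squares for array 2, with a dash at each group mean. TIP1;1 and TIP2;1 fell by 2.68 and 2.76 log2 units, while SWEET15, at the right of the lower panel, was above background on the drought arrays alone.

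Cell wall families contributed many of the genes that fell. The study chose these families on these samples, so their counts are not independent evidence of a direction. Xyloglucan endotransglucosylases (XTH) cut and rejoin the xyloglucan that tethers cellulose, and of 23 tested 13 fell and 3 rose, with a median of -1.65. XTH6 gave 12.65 and 13.23 against 10.56 and 9.77, a 6.86-fold fall (adjusted p = 2.6e-04). XTH4 gave 11.98 and 12.87 against 10.11 and 9.36, a change of -2.69 ± 0.35 (adjusted p = 2.7e-04). In both genes every drought array lay below every control array by more than 1 unit. XTH33 was above background on neither drought array (2.99 and 3.56) and gave 7.40 and 8.13 on the control arrays, about 22.5-fold lower under drought (adjusted p = 5.6e-05). XTH7 (-1.80) and XTH8 (-2.03) fell as well, and these 5 calls held without any single array, all but that of XTH7 also with the slide as a fixed block.

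Most of the remaining calls of the family were less stable. XTH25, at 8.49 and 8.38 against 6.34 and 3.98 with 1 of 2 drought arrays above background, lost its call without control array 2 (-3.33, adjusted p = 0.0645) and without drought array 2 (-2.09, adjusted p = 0.173). XTH9 (-1.95) lost it without control array 2 (-1.98, adjusted p = 0.0675) and without drought array 2 (-1.2, adjusted p = 0.186). Altogether 6 of the 16 XTH calls held with each array left out and 4 with the slide as a fixed block. XTH31, whose product acts mainly as a hydrolase of xyloglucan, went against the family and rose from 12.26 and 12.65 to 13.64 and 13.98 (1.35 ± 0.22, adjusted p = 0.00111). The family median was -0.43 in stomata labelled Col-0 (-0.68 without the library labelled drought array 2) and -0.93 in bam1 leaf, and no XTH gene passed either test of a difference (lowest adjusted p = 0.15 for genotype and 0.0971 for tissue).

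Expansins, which loosen walls without cutting them, moved in both directions, with 4 of 20 tested lower and 3 higher. EXPA8 gave 13.08 and 13.38 against 11.56 and 11.25, a 3.55-fold fall (adjusted p = 3.5e-04). EXPA9 gave 8.59 and 8.79 against 10.58 and 10.74, a 3.92-fold rise (adjusted p = 5.1e-05), and EXLB1 gave 13.44 and 13.58 against 14.79 and 15.27, a rise of 1.52 ± 0.26. The 4 arrays of each of these genes fell into separate pairs, and the 3 calls held without any single array, that of EXPA8 however not with the slide as a fixed block.

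Arabinogalactan proteins, sugar-rich proteins of the cell surface, were mostly lower, with 13 of 38 tested called lower, 1 higher and a median of -0.55. AGP12 gave 14.74 and 15.04 against 13.27 and 12.43, a change of -2.04 ± 0.34 (adjusted p = 0.00138), and AGP41 changed by -1.94 ± 0.26 (adjusted p = 3.9e-04). The fasciclin-like FLA9 fell by 1.63 and held its call without any single array, as AGP10, AGP12, AGP24 and AGP41 did. With the slide as a fixed block 3 of the 14 calls held, among them FLA9 and AGP41. AGP4 was the member that rose (1.08), with the call lost without control array 2 (0.78, adjusted p = 0.211), without drought array 1 (0.93, adjusted p = 0.151) and without drought array 2 (1.23, adjusted p = 0.0881). Of 32 cellulose synthases and related glycan synthases 3 fell and 2 rose. CSLA10 (2.09) and CSLG1 (1.89) were the 2 that rose. BXL1, a beta-xylosidase and arabinofuranosidase of the wall, gave 11.92 and 12.80 against 9.06 and 8.88 and was 10.5-fold lower (adjusted p = 4.2e-05). PME2, a pectin methylesterase, was above background on neither drought array and was about 11.04-fold lower. Its call was lost without control array 2 (-3.05), without drought array 1 (-3.54) and without drought array 2 (-3.39).

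Auxin-responsive genes fell in selected families, and the study also picked auxin genes on these samples. Auxin promotes cell expansion, and the Aux/IAA proteins repress its transcription factors while being induced by it. Of 22 Aux/IAA genes 2 fell and none rose. IAA6 gave 8.40 and 9.39 against 5.41 and 5.04, a 12.7-fold fall (adjusted p = 1.9e-05). IAA19 gave 8.71 and 9.32 against 7.26 and 7.09, a 3.59-fold fall (adjusted p = 1.1e-04). Both sets of drought arrays lay well below the controls, while the median of the family was -0.10. Among GH3 enzymes, which attach amino acids to auxin, 3 of 4 tested fell, with GH3.6 at 9.17 and 8.33 against 6.36 and 6.18 (-2.48 ± 0.38, adjusted p = 8.8e-04) as the member whose call held without any single array, although none of the 3 calls held with the slide as a fixed block. The call of GH3.3 was lost without control array 1 (-1.80, adjusted p = 0.0816), without control array 2 (-2.07, adjusted p = 0.0784), without drought array 1 (-1.87, adjusted p = 0.0942) and without drought array 2 (-2.00, adjusted p = 0.0996). That of GH3.5, with 1 of 2 drought arrays above background, was lost without control array 2 (-1.69, adjusted p = 0.0812) and without drought array 1 (-1.21, adjusted p = 0.135).

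SAUR genes, small auxin-induced genes tied to cell elongation, had 13 of 47 tested lower and none higher, with a median of -0.55. SAUR5 gave 5.44 and 5.43 on the control arrays and was above background on neither drought array, at least 5.29-fold lower (adjusted p = 2.6e-04). SAUR1 was likewise at least 6.07-fold lower (adjusted p = 3.6e-04). SAUR22 fell by 1.50 (adjusted p = 6.4e-04), though the SAUR19 to SAUR24 genes are near-identical neighbours whose signals cannot be assigned with certainty. In all, 4 of the 13 SAUR calls held with each array left out and 3 with the slide as a fixed block.

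Genes of ethylene synthesis pointed downwards in 6 of 6 tested members, with 3 called and a median of -1.18. ACS4, which makes the ethylene precursor ACC, gave 7.47 and 7.80 on the control arrays and was above background on neither drought array, about 16.8-fold lower (adjusted p = 2.1e-04). ACO3, an ACC oxidase, fell by 1.02, a call lost without control array 2 (-0.63, adjusted p = 0.0953) and without drought array 2 (-0.99, adjusted p = 0.0589).

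In the jasmonate pathway 2 of 17 tested genes rose, the storage proteins VSP1 and VSP2. VSP2 gave 10.43 and 11.58 against 13.17 and 13.35, with the call lost without control array 1 (1.68, adjusted p = 0.120), without drought array 1 (2.35, adjusted p = 0.0622) and without drought array 2 (2.16, adjusted p = 0.111). VSP1 gave 10.99 and 12.62 against 14.21 and 13.66, with the call lost without control array 1 (1.31, adjusted p = 0.120) and without drought array 1 (1.85, adjusted p = 0.0928). They are close copies of each other, and the probes of VSP1 ranged from -0.84 to 2.13. Among 8 defence genes tested 2 fell and 1 rose. PR4, a chitin-binding protein, gave 10.32 and 11.02 against 8.02 and 7.55, a change of -2.89 ± 0.52 (adjusted p = 0.00257). ORA59, the ethylene and jasmonate integrator that activates such genes, changed by -2.23, a call lost without control array 2 (-1.81, adjusted p = 0.200) and without drought array 2 (-1.39, adjusted p = 0.303). None of the jasmonate and defence calls held with the slide as a fixed block. All 8 defence genes were higher on control array 2 than on control array 1, by a median of 1.12, and the part of that in the result was not tested.

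Genes for the lipids of the leaf surface were mostly not called. Of 20 wax and cutin genes tested 2 fell and 1 rose. No marker of the epidermis was called on its brightest probe, although the summed epidermis signal was higher under drought. Of the 4 tested probes of LTP1, however, 1 was called, and their changes ranged from 0.80 to 1.28. CER4, the reductase that makes primary alcohols of the wax, gave 6.60 and 7.50 on the control arrays and was above background on neither drought array, about 7.68-fold lower (adjusted p = 0.00161). SHN3, an AP2 factor of the SHINE clade that regulates cutin and wax genes, gave 6.49 and 6.12 against 9.88 and 10.20 and rose 13.3-fold (adjusted p = 6.7e-06). Its drought arrays lay more than 3 units above its control arrays. ADS1, an acyl-lipid desaturase, gave 10.60 and 10.89 against 7.41 and 5.96, a change of -4.06 ± 0.71 (adjusted p = 0.00204) that was not called with the slide as a fixed block.

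Few of the genes that define the guard cell itself were called. Of 16 genes of the stomatal lineage 1 was called, SDD1, a subtilisin-like protease that limits stomatal density, which gave 9.17 and 8.73 against 6.94 and 5.75, a 6.07-fold fall (adjusted p = 0.00195). Both drought arrays lay below both control arrays, but the call did not hold with the slide as a fixed block. Of 17 ion channels and pumps none was called, and 8 changes were above 0. Their median change was -0.008, but 0.34 without control array 1 and -0.29 without control array 2. Control array 1 exceeded control array 2 for 13 of the 17, and the part of that in the result was not tested. ALMT9, a vacuolar chloride channel, changed by 0.86 (adjusted p = 0.00710) and KAT1, an inward potassium channel of guard cells, by -0.76 (adjusted p = 0.0486), both below 2-fold. Among the 8 guard-cell markers 1 was called, GC1, at 15.77 and 14.34 against 13.57 and 13.46 (-1.54 ± 0.48, adjusted p = 0.0478), and its call was lost without control array 1 (-0.82, adjusted p = 0.323), without drought array 1 (-1.60, adjusted p = 0.127) and without drought array 2 (-1.48, adjusted p = 0.196). The median change of the markers was -0.17, but 0.34 without control array 1 and -0.86 without control array 2, so it turned direction with the control array that was left out. None of 7 genes of blue-light signalling, 11 clock genes, 45 light-harvesting and photosystem genes or 50 ribosomal protein genes was called, nor any of 8 genes of aliphatic glucosinolate synthesis or 12 pentatricopeptide repeat proteins, a family the study discussed. Of 10 genes of chlorophyll breakdown and senescence 1 fell, the senescence factor NAC092 (-1.33), with the call lost without control array 2 (-1.07, adjusted p = 0.210), without drought array 1 (-1.17, adjusted p = 0.153) and without drought array 2 (-1.49, adjusted p = 0.0939). Of 7 EXORDIUM genes, which are tied to brassinosteroid-driven growth, 1 fell, EXL3 (-1.02), with the call lost without control array 2 (-0.77, adjusted p = 0.287) and without drought array 2 (-0.62, adjusted p = 0.388).

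Several genes outside these lists were among the 15 highest or the 15 lowest. NUDT24, a Nudix hydrolase, gave 3.57 and 5.25 against 9.92 and 9.99, with 1 of 2 control arrays above background (adjusted p = 1.1e-04). HIPP22, a heavy metal-associated isoprenylated protein, was above background on neither control array and about 20.9-fold higher under drought (adjusted p = 8.4e-04). BFT, a relative of the flowering regulators FT and TFL1, gave 8.88 and 8.67 against 12.06 and 12.65, a 12.0-fold rise (adjusted p = 9.3e-06). In each of these 3 genes the drought arrays lay within 1 unit of each other. That they lay above both control arrays was required by the choice of the 15 highest genes. DAA1, an AAA-type ATPase, gave 8.98 and 8.79 against 12.23 and 12.77 and rose 12.2-fold (adjusted p = 1.1e-04).

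At the lower end BT5, a BTB and TAZ domain protein, gave 9.07 and 8.75 against 6.03 and 5.52, a change of -3.13 ± 0.50 (adjusted p = 0.00114). MEE3, a small MYB-related protein, gave 12.08 and 11.46 against 8.71 and 8.24, a change of -3.29 ± 0.35 (adjusted p = 7.0e-05). HIR2, a membrane protein of the hypersensitive-induced reaction family, gave 10.90 and 10.93 against 8.38 and 7.33, an 8.34-fold fall (adjusted p = 9.5e-05). The control arrays were the higher pair in each, which the choice of the 15 lowest genes required. THI2.2, a thionin, was above background on neither drought array and at least 8.50-fold lower (adjusted p = 3.7e-04). ICME-LIKE2, an isoprenylcysteine methylesterase relative, fell by 3.56 with 1 of 2 drought arrays above background. CYP716A1, a cytochrome P450, was at least 12.0-fold lower, with the call lost without control array 2 (-3.37, adjusted p = 0.123) and without drought array 1 (-3.02, adjusted p = 0.133), and P1R3 fell by 3.08, with the call lost without control array 2 (-2.53, adjusted p = 0.0541) and without drought array 2 (-2.35, adjusted p = 0.0675). All 15 highest and 11 of the 15 lowest genes were called with each array left out, and 11 and 10 with the slide as a fixed block.

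**Figure D5:**
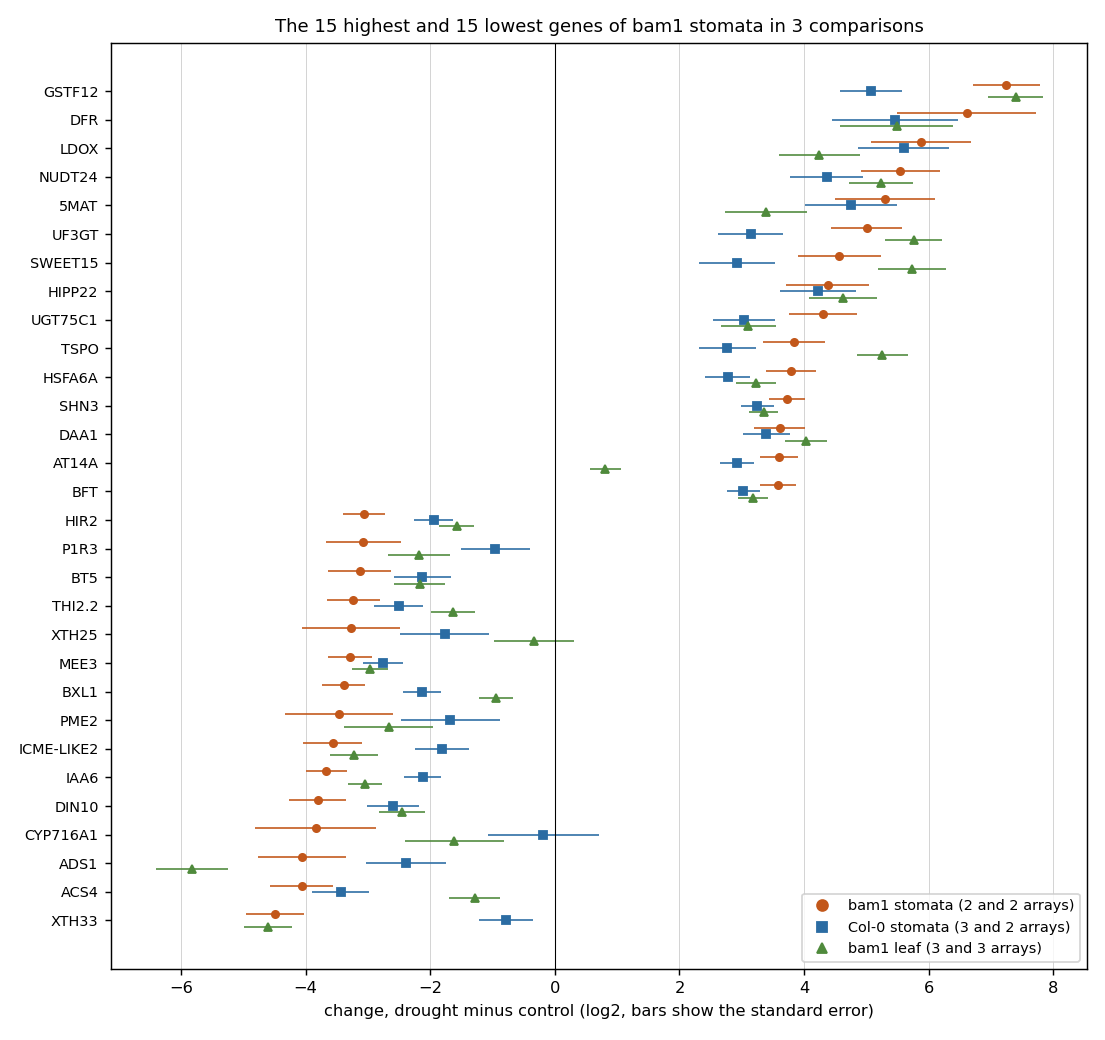
Change under drought (log2, x axis) of the 15 highest and 15 lowest genes of bam1 stomata (orange) with the same genes in stomata labelled Col-0 (blue, with the drought library that goes against its label) and bam1 leaf (green), bars showing the SE. AT14A lies at 3.60 in bam1 stomata and 0.81 in bam1 leaf, and XTH33 at -4.49 in bam1 stomata, -0.78 in stomata labelled Col-0 and -4.61 in bam1 leaf. In control stomata the fitted XTH33 level was 2.69 higher in bam1 than in Col-0.

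Whether the drought change in bam1 stomata differed from that in bam1 leaf was tested as a difference of the changes, each with its own controls, and 19 of 29369 probes (0.0647%) were called, 14 with a higher change in stomata (0.0477%) and 5 with a lower one (0.017%). The count was 320 without control array 1, 76 without drought array 2, 4 with scaling to the 75th percentile and 1 with the slide as a fixed block. AT14A, an integrin-related membrane protein, gave 12.03 and 12.91 against 15.81 and 16.34 in stomata and changed by 3.60 ± 0.30, against 0.81 ± 0.25 in leaf. The difference was 2.79 ± 0.39 (adjusted p = 0.0119), and since AT14A has a near-identical neighbouring copy, the signal may come from either. YUC4, a flavin monooxygenase of auxin synthesis, was above background on neither control array (3.13 and 2.83) and gave 5.66 and 5.11 under drought. It was thus at least 3.68-fold higher, and no bam1 leaf array was above background. The adjusted p of the tissue difference was 0.00181, but its size is not measured, since YUC4 passed the filter through the drought arrays alone. IAGLU, which glucosylates auxin, gave 10.53 and 10.53 against 9.56 and 9.47, a change of -1.02 ± 0.15 against 0.25 ± 0.12 in leaf (adjusted p of the difference = 0.0265). Both auxin enzymes had arrays of a group close together, YUC4 higher and IAGLU lower under drought, and the call of IAGLU in bam1 stomata was lost without drought array 2 (-0.97, adjusted p = 0.0111). HR4, a homologue of the mildew resistance protein RPW8, changed by -1.95 ± 0.23 in stomata and -0.18 ± 0.18 in leaf (adjusted p of the difference = 0.0405).

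The same test between the genotypes, bam1 stomata against Col-0 stomata, called 4 of 29369 probes (0.0136%), 3 of them higher in bam1 (0.0102%) and 1 lower (0.0034%), and no gene of the lists was among them. The count was 101 without the library labelled drought array 2 of Col-0 stomata, which goes against its label for BAM1, 179 without bam1 control array 1, 56 without bam1 drought array 2 and 1 with the slide as a fixed block. The 4 probes were all called without the library labelled Col-0 drought array 2. AT1G62160 was above background on neither bam1 control array (3.12 and 2.35) and gave 6.60 and 6.27 under drought. It was thus at least 7.65-fold higher under drought in bam1, and no array labelled Col-0 stomata was above background (adjusted p of the difference = 0.0137). AT4G01535 moved the other way, with 5.74 and 7.30 on the bam1 control arrays and no other array of the series above background, at least 11.2-fold lower under drought (adjusted p of the difference = 0.00155). Each of these genes passed the filter through 1 bright group, so the size of the genotype difference is not measured. Among called genes the fitted difference was largest for AT4G16030 (-4.91 ± 1.33, adjusted p = 0.592) and it was -3.71 ± 0.63 for XTH33 (adjusted p = 0.150) and -3.65 ± 1.32 for CYP716A1 (adjusted p = 0.793), but these did not pass the test, and no drought array of bam1 stomata was above background for any of the 3. In control plants the fitted level in bam1 stomata was above that in Col-0 stomata for AT4G16030 (2.01), XTH33 (2.69) and CYP716A1 (3.61). Of these 3 control differences that of XTH33 had an adjusted p under 0.05 (limma adjusted p = 0.0282). A p that misses the threshold does not show that the genotypes responded alike.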

How the data were processed

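The 20 one-colour Agilent arrays (8 groups of 2 or 3) were scanned by the authors, and Feature Extraction 11.5.1.1 wrote background-subtracted, detrended spot intensities, which the authors deposited unnormalised, as processed signal intensity per the file headers. The deposited flags for a spot well above background and for saturation (scored 0 or 1) and the authors' log2 value table were also read; the table served as an alternative only. Probes (43603) were designed on TAIR10 per the file headers, and 34348 (78.8%) were named through a RefSeq table by accession or locus, giving 25410 genes. The median processed intensity of the 4 bam1 stomatal arrays was 163.482 to 187.553, and the small number of arrays limits the precision.

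Control spots were removed, spots of a probe averaged, and log2 intensities quantile-normalised over the 20 arrays. Probes well above background on all arrays of either bam1 stomatal group were fitted with limma 3.58.1 (R 4.3.3) over all 8 groups, which share 1 estimate of the spread (12 residual and 2.62 prior degrees of freedom; the median SD within groups was 0.222). A call needed a two-sided Benjamini-Hochberg adjusted p under 0.05 over all probes and a 2-fold change. Differences between genotypes and between tissues were tested as interaction terms. The brightest tested probe stood for each gene, and genes of other families that share a symbol were left out of the lists. Named genes were list members, the 15 highest and 15 lowest called genes with a symbol whose groups did not overlap, and the 10 called genes with the largest genotype difference. The comparison and the lists were chosen with earlier results of these data known. On simulated data for this comparison (28145 probes) 74 of 100 probes changed by 1.5 log2 units and 91 of 100 changed by 3 were called, with 6 unchanged probes called. The simulated noise was independent between arrays and held no slide effect or shift in cell types, so these rates do not cover them.

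Alternatives were another scaling, background, probe filter, choice of arrays, slide or replicate block and the methods' t-test, and each array was left out in turn. The normexp alternative used the median spot signal, since the mean spot signal was not used here. The replicate numbers did not pair the samples: deviations of arrays of the same number correlated at r = -0.237 over 29369 probes.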

Additional observations from a re-analysis of the deposited data

Results flagged for a closer look

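The changes below were singled out by a test of the difference between drought responses (an interaction term in limma, adjusted p under 0.05 and a difference of at least 1 on the log2 scale). They are given as values with no explanation.

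Against Col-0 stomata, the drought change of bam1 stomata differed by 4.00 for AT1G62160, 3.07 for AT2G20150, 3.05 for the unnamed probe A_84_P767274 and -3.95 for AT4G01535. The drought arrays of AT1G62160, AT2G20150 and A_84_P767274 were above background and the bam1 control arrays were not (5.50 and 4.75 under drought for AT2G20150 and 5.15 and 4.98 for A_84_P767274). For AT4G01535 the bam1 control arrays (5.74 and 7.30) were the ones above background. Levels on the dim side of these 4 probes, and of YUC4, ACT9, AT3G63040 and AT4G14103 below, are at background, so the sizes of their differences are fitted values and not measurements, and the library labelled Col-0 stomata drought array 2, whose BAM1 signal went against its label, enters each of the genotype differences.

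Against bam1 leaf, the difference was 3.66 for AT1G62160, 2.24 for AT2G20150, 2.73 for A_84_P767274 and -4.05 for AT4G01535, so the same 4 probes were called against both leaf and the other genotype. It was 3.97 for ACT9, an actin gene, which gave 7.81 and 6.52 on the bam1 drought arrays of stomata and was above background on neither stomatal control array. It was 2.79 for AT14A, 2.33 for YUC4, -1.26 for IAGLU and -1.76 for HR4, described above. AT3G63040 (2.42) and AT4G14103 (2.1) rose from control arrays below background to 4.53 and 4.86 and to 5.07 and 4.88 in bam1 stomata. AT1G60680 differed by 1.2, AT5G62370 by 1.26, AT2G28570 by 2.04, AT1G76240 by 1.53 and AT1G62480 by -2.51. AT1G62480 gave 9.30 and 9.24 on the stomatal control arrays and 5.40 and 5.46 under drought, a change of -3.84 ± 0.24 against -1.33 ± 0.19 in leaf, while AT1G76240 changed by 0.01 in stomata and -1.52 in leaf.

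A second probe of GSTF12, A_84_P831728, differed by 4.09, with a change of 4.47 in bam1 stomata and 0.38 in bam1 leaf, whereas its brightest probe changed by 7.25 and 7.40, so the probes of GSTF12 disagree in leaf. A probe of EXO, A_84_P811890, differed by 3.56, with -0.60 in stomata against -4.16 in leaf. The unnamed probe A_84_P801054 differed by -5.11, but 2 of its 3 leaf control arrays gave no value, so that difference rests on 1 leaf control array. Leaving out bam1 stomatal control array 1 raised the number of probes with a tissue difference from 19 to 320, and with a genotype difference from 4 to 179.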

How the results depend on the processing

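Of 29369 probes 1750 were called in bam1 stomata. The count was 898 with normexp background (382 higher, 516 lower), 525 with slide as a fixed block (469 of them shared), 0 in a fit on the 4 arrays alone (5424 at an unadjusted p under 0.05), and 0 with the methods' t-test (1065 at their unadjusted threshold with 2-fold). In the reported fit 7915 probes had an unadjusted p under 0.05. Leaving out one array each gave 986 (without drought array 2) to 2440 (without control array 1), with 1180 without control array 2. The other settings, among them the 75th percentile shift at 1646 (639 higher, 1007 lower) and slide as a random block at 1732, stayed within 1.5 times, and 1783 were called without the library labelled Col-0 stomata drought array 2. The replicate block gave 1703 and a crossed block, added after seeing the data, 1761. For the gene lists in bam1 stomata the count of 132 became 43 with slide as a fixed block (41 of them among the 132), 0 on the 4 arrays alone, 0 with the t-test and 75 to 141 with one array left out. Of the 157 named results, none that was called changed sign under these settings. The uncalled BAM1 did not keep its direction: control array 1 (7.36) lay below both drought arrays (7.84 and 8.24) and control array 2 (9.71) above them. The medians of the guard-cell markers and of the ion channels and pumps changed sign as well. In short lists the balance of higher and lower calls also shifted: expansins, 4 lower and 3 higher, had 3 higher and 0 lower with slide as a fixed block.

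The 4 genotype differences became 0 with the 75th percentile shift, 1 with normexp background, 11 with no filter, 0 on stomatal arrays alone, 101 without Col-0 stomata drought array 2 and 1 with slide as a fixed block. One array left out gave 4 to 179. The 19 tissue differences became 4 with the 75th percentile shift and 1 with slide as a fixed block, and one array left out gave 17 to 320 (76 without drought array 2). Of 157 named results, which include the uncalled BAM1, 146 kept their status as called or not called with the 75th percentile shift. With normexp background 120 kept it, and with slide as a fixed block 60. The cause of these shifts was not tested. A change under 2-fold was never called, by the rule.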
